A study of Mus musculus with 2 samples.

Results

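The 9 genes described here regulate or mark the oligodendrocyte lineage: Olig1, Olig2, Sox10, Sox8, Nkx2-2, Nkx6-2, Myrf, Pdgfra and Cspg4. They were chosen by name, not by a rule on any measured value, though earlier results of these data were known. They were 9 of the 21911 protein-coding genes of GENCODE M21 used here. The data are DNase-seq of hippocampal tissue, in which DNase I cuts accessible chromatin and the cut ends are sequenced. The tissue came from male B6CASTF1/J mice, the first-generation offspring of C57BL/6 and CAST/EiJ parents, at 14 days of age, with no further treatment or genotype in the labels. There was 1 group with 2 replicates, so no group contrast and no test between conditions could be made. Each label speaks of 3 males, both carry the same donor identifier, and the tissue is called a hippocampal layer, the layer itself not being named. How the animals were divided between the replicates is not stated, so the spread between them may be partly technical.

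Oligodendrocyte precursors arise under patterning signals such as Sonic hedgehog, which induces the bHLH factor Olig2 and the homeodomain factors of the Nkx2 and Nkx6 families. Olig2 and Sox10, an HMG-box factor, hold cells in the lineage, the receptor Pdgfra and the proteoglycan Cspg4 (NG2) mark proliferating precursors, and Myrf drives the switch to myelin gene transcription. In the rodent hippocampus, myelination proceeds during the weeks after birth, when precursors and maturing oligodendrocytes lie side by side among far more numerous neurons.

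All positions are on mm10 (GRCm38). A peak is a stretch of dense DNase cuts, and each value is the authors' own value per peak, in a unit the sources used here do not state. Overlapping peaks of the replicates were joined into a site, and a site with a peak of each replicate is called shared. A promoter is the 1 kb either side of any start site of the basic transcript set of GENCODE, and a gene's window is its annotated body with 50 kb either side. Distances are from the 5′ end of that body to a site's centre. A footprint is a short protected stretch inside accessible chromatin, listed by the authors for each replicate. In bulk tissue, fewer cells of a type and less open chromatin per cell cannot be told apart.

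The sequences below are the stretches where the peaks of both replicates overlapped at the strongest shared site outside promoters of 7 of the genes, by mean percentile of its value, because the account of each gene returns to them. They come from the RefSeq copy of GRCm38.p6 and are printed 5′ to 3′ on the plus strand. The stretch at Myrf is the central 300 bp of an overlap of 420 bp. Capitals mark bases inside a footprint of both replicates. The site under Olig2 lies between Olig2 and Olig1 and belongs to both windows, the shared stretch at Pdgfra was too short to show, and that of Sox8 is not shown.
Olig1 site, chr16:91314241-91314440: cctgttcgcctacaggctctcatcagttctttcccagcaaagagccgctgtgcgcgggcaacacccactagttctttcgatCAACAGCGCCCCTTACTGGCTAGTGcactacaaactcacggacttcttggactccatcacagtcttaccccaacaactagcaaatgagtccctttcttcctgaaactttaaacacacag
Olig2 site, chr16:91266081-91266300: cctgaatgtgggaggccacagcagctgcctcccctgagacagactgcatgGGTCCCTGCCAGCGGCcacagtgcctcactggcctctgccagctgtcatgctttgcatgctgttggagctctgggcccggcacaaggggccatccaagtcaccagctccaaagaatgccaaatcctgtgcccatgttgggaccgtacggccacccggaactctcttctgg
Sox10 site, chr15:79148661-79148860: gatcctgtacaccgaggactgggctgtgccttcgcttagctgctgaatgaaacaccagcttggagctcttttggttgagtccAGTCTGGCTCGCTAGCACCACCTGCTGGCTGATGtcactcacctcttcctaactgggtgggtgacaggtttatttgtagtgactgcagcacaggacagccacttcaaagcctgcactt
Nkx2-2 site, chr2:147177801-147178000: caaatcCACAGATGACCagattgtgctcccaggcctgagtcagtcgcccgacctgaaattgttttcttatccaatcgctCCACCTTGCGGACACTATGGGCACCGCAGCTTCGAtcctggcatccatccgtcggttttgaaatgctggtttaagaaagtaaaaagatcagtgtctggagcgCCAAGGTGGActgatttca
Nkx6-2 site, chr7:139616241-139616460: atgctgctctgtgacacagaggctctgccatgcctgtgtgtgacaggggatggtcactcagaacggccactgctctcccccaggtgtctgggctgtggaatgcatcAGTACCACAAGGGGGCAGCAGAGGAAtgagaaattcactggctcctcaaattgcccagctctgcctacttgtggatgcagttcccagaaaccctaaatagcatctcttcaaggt
Cspg4 site, chr9:56868341-56868620: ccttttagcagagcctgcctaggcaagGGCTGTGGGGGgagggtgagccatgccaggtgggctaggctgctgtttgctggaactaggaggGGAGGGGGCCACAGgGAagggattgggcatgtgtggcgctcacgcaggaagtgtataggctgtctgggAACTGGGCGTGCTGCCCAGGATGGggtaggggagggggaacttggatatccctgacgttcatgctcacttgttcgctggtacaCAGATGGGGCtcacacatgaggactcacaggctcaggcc
Myrf site, chr19:10188381-10188680: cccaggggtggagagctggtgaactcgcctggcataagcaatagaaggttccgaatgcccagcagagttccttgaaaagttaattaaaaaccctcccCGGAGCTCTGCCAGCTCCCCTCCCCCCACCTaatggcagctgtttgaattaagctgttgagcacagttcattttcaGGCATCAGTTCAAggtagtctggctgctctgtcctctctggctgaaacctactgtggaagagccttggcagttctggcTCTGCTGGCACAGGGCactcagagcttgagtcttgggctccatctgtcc
Bases inside a footprint of both replicates numbered 16 to 61 in each stretch, in 1 to 5 separate runs.

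The promoter sites shown next are the strongest shared ones of Olig1, Sox8 and Pdgfra, the 3 members with the highest promoter values, without bases annotated as untranslated.
Olig1 promoter site, chr16:91269561-91269771: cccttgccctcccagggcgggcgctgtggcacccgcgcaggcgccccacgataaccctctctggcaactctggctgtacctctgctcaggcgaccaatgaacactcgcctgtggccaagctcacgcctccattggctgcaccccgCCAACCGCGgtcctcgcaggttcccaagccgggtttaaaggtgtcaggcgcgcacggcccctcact
Sox8 promoter site, chr17:25570687-25570900: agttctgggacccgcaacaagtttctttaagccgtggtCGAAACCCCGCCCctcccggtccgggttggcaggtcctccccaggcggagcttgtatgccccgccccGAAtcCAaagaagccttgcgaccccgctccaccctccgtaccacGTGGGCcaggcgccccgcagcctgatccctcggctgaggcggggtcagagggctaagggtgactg
Pdgfra promoter site, chr5:75156350-75156480: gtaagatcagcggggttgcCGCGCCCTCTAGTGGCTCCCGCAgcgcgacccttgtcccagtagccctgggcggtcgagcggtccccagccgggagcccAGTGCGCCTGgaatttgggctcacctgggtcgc

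Promoters of the 9 genes were open in part. A promoter peak was present in both replicates at 5 of the 9 genes (55.6%), against 62.6% of all protein-coding genes: Olig1, Olig2, Sox8, Myrf and Pdgfra. Nkx2-2 had a promoter peak in replicate 2 alone and Nkx6-2 in replicate 1 alone, against 3.45% of all protein-coding genes with one in a single replicate. Sox10 and Cspg4 had none in either replicate, which was so for 33.9% of all protein-coding genes. In replicate 1 taken alone 6 members had a promoter peak, against 64.6% of all protein-coding genes, and in replicate 2 again 6, against 64.1%. The members' share of open promoters was thus close to that of all genes, and the 9 genes are too few to place it more exactly. A promoter footprint in both replicates was found at the same 5 members, against 61% of all protein-coding genes.

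Where the promoters had peaks, most were weak for promoters. The highest promoter peak of the members had a median of 1.24 in replicate 1, against 2.46 over all genes with one, and of 1.67 in replicate 2, against 3.13. In both replicates Sox8 alone stood above the median of all genes with a promoter peak, at percentile 58.8 of such genes in replicate 1 and 66.2 in replicate 2.

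**Figure D1:**
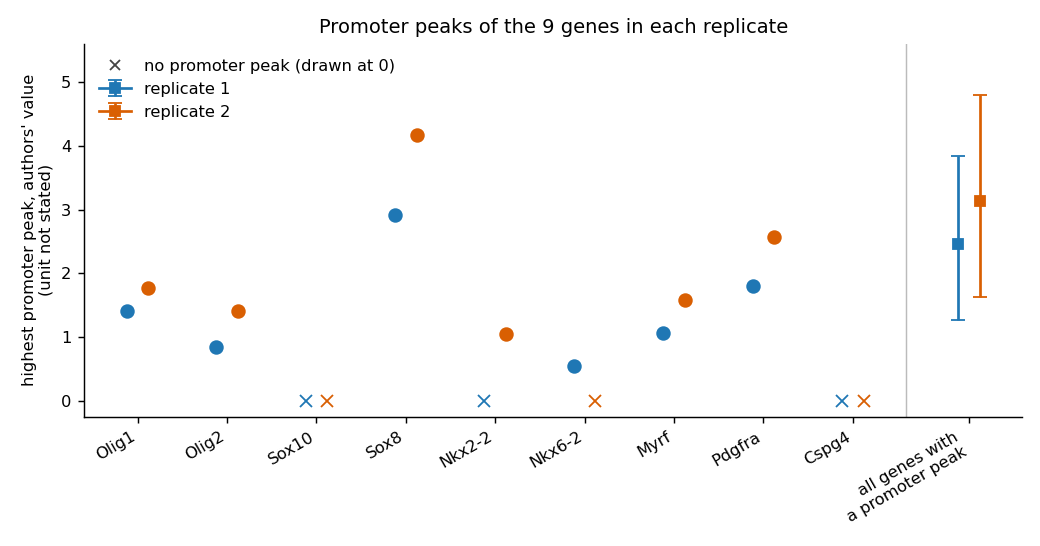
Highest promoter peak of each of the 9 genes in replicate 1 (blue) and replicate 2 (orange), in the authors' value; crosses at 0 mark genes with no promoter peak. Squares with bars at the right are the median and quartiles over all genes with a promoter peak. Sox8 is the highest member in both replicates, Sox10 and Cspg4 have none, and Nkx2-2 and Nkx6-2 each have a peak in 1 replicate.

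Olig1 (ENSMUSG00000046160.6, chr16:91269772-91271933) encodes a bHLH factor needed for oligodendrocyte maturation and repair. Its promoter peak had a value of 1.41 in replicate 1 and 1.77 in replicate 2 (1.59 ± 0.256, SD, n = 2). Both peaks covered the start site and began at the first base of the Olig1 promoter stretch printed above. They stood at percentiles 82.9 and 81.7 of all peaks of their libraries, and so among the stronger peaks of each library, but only at percentiles 28.0 and 27.4 of genes with a promoter peak. A broader shared site followed over the single exon, with 0.976 in replicate 1 and 0.881 in replicate 2.

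Olig2 (ENSMUSG00000039830.9, chr16:91225457-91228677) encodes the bHLH factor that specifies the lineage. Its promoter peak had 0.834 in replicate 1 and 1.41 in replicate 2 (1.12 ± 0.407, SD, n = 2), the widest relative gap among the 5 members with a peak in both, at a ratio of 1.69. The start sites of Olig1 and Olig2 lie 44.3 kb apart on the same strand, so their windows share 16 sites and the counts of these 2 genes are not independent. Outside promoters, the strongest site between them lay 3.58 kb upstream of the Olig1 start, with 1.33 in replicate 1 and 1.64 in replicate 2. This is the Olig2 sequence printed above. A single run of 16 bases in it lay inside a footprint of both replicates. A site 33.4 kb upstream of Olig2, between genes, had 0.912 and 1.08. Over the Olig2 exons and the 10 kb downstream, most sites were called in replicate 2 alone. A site in an Olig2 exon was shared, with 0.679 in replicate 1 and 0.881 in replicate 2, and held 2 footprints in replicate 1 and 8 in replicate 2. A neighbouring stretch of 940 bp in that gene carried 3 peaks and 7 footprints in replicate 2 and no peak in replicate 1.

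Downstream of Olig1 the strongest sites lay inside the gene Gm15966. The highest, 44.6 kb from the Olig1 start, had 1.58 in replicate 1 and 1.73 in replicate 2, and it was the strongest shared site outside promoters in the Olig1 window. In the printed sequence a single run of 25 capitals marks the bases inside a footprint of both replicates. The site 36.2 kb downstream had 0.813 and 0.905.

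Sox10 (ENSMUSG00000033006.10, chr15:79154908-79165240), the HMG-box factor that keeps the lineage through differentiation, had no peak in either replicate at its promoter or anywhere in its body. The authors also list all stretches whose cut rate passed a false discovery rate of 0.05, and this list held 0 bp within its promoter and its body in both replicates. The nearest site lay beyond the 3′ end of the gene, 13.1 kb from the start, with 0.686 in replicate 1 and 0.832 in replicate 2. The window was nevertheless not closed, since it held 7 shared sites. The strongest outside promoters, 16.5 kb downstream inside an intron of Polr2f, had 1.72 in replicate 1 and 2.23 in replicate 2. Polr2f encodes a subunit shared by the RNA polymerases, and its start site is nearer to this site than that of Sox10. Upstream of Sox10 the strongest site was 840 bp wide, lay 28.3 kb away within Gm10863 and had 1.15 and 1.21, with 4 footprints in replicate 1 and 11 in replicate 2. The highest value of the whole window, 4.34 in replicate 1 and 5.48 in replicate 2, belonged to the start sites of Polr2f and 1700088E04Rik.

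Sox8 (ENSMUSG00000024176.10, chr17:25565892-25570686) encodes an HMG-box factor of the same SoxE family as Sox10 and overlaps with it in function. It had the strongest promoter of the 9, with 2.91 in replicate 1 and 4.17 in replicate 2 (3.54 ± 0.892, SD, n = 2). These were percentiles 94.2 and 94.8 of all peaks of their libraries. The promoter window also holds start sites of 2810468N07Rik, so the peak cannot be given to Sox8 alone. All 7 sites in the Sox8 body were shared. The strongest of them outside promoters lay in a coding exon 2.71 kb from the start, with 2.06 in replicate 1 and 2.69 in replicate 2 and 4 footprints in replicate 1 against 5 in replicate 2. Another site of 1040 bp, 14.1 kb downstream in an intron of AC131323.3, had 1.75 and 2.02 and 11 footprints in each replicate.

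Nkx2-2 (ENSMUSG00000027434.11, chr2:147177546-147194243), a homeodomain factor that acts with Sox10 in precursor differentiation, differed between the replicates more than any other member. Replicate 1 had 4 peaks in its window and replicate 2 had 23. Of 21 sites, 3 were shared, 1 was in replicate 1 alone and 17 were in replicate 2 alone. The 3 shared sites lay together at the 3′ end of the annotated gene, 15.3 to 16.4 kb from its 5′ end. The first had 2.17 in replicate 1 and 3.21 in replicate 2, and the second 2.15 and 2.27. The third had 1.12 and 0.954. Both replicates thus had a peak at these 3 sites, the first and second higher in replicate 2 and the third in replicate 1. From there through the promoter every site was in replicate 2 alone.

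These replicate 2 sites of Nkx2-2 covered 7226 bp and had values of 0.342 to 1.05, the highest at percentile 66.2 of that library. The start sites of Nkx2-2 in the basic set lie 7.84 and 8.14 kb inside its 5′ end. The highest promoter peak, with 1.05 in replicate 2, was centred 8.47 kb inside that end. A site 0.842 kb inside the 5′ end had 0.995 and 12 footprints. A start site at the 5′ end itself is annotated only outside the basic set, so this site and its neighbours count as intronic here. Several of the replicate 2 sites lie within 1 kb of start sites of the antisense gene Nkx2-2os or of 6430503K07Rik, and their peaks cannot be assigned to 1 gene. In replicate 1 the list of stretches under 0.05 held 0 bp under any of the 17 sites, against 6971 bp in replicate 2. In the gene body as a whole it held 1712 bp in replicate 1, against 9340 bp in replicate 2. The excess of 16 sites of replicate 2 alone over those of replicate 1 alone was reached by 100 of the 21911 genes (0.456%).

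Nkx6-2 (ENSMUSG00000041309.17, chr7:139579376-139582797), a homeodomain factor of maturing oligodendrocytes, went the other way. Its promoter had 4 peaks in replicate 1, the highest at 0.537, and none in replicate 2. The list of stretches under 0.05 held 607 bp at the promoter in replicate 1 and 0 bp in replicate 2. That list and the peaks come from the same libraries, so it is no separate evidence. No promoter peak of Nkx6-2 remained in replicate 1 in the shorter peak list or among the peaks at or above the median value. All 4 values were low for that library, the highest at percentile 44.3. Just outside the promoter, 1.49 kb upstream, a shared site had 0.834 in replicate 1 and 0.938 in replicate 2. The peaks of the replicates overlapped by only 27 bp of the 380 bp of this site. With a promoter of 2500 bp either side this site counts, and Nkx6-2 then has a promoter peak in both replicates. The strongest site outside promoters was 33.6 kb upstream in an exon of Cfap46, with 1.62 in replicate 1 and 1.52 in replicate 2. Its footprint in both replicates covered AGTACCACAAGGGGGCAGCAGAGGAA, which holds the core motif of the insulator protein CTCF as CCACAAGGGGGC.

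Myrf (ENSMUSG00000036098.15, chr19:10208272-10240748) encodes the membrane-released factor that switches on myelin genes. Its promoter peak was 229 bp wide in replicate 1 and 240 bp in replicate 2, with 1.07 in replicate 1 and 1.57 in replicate 2 (1.32 ± 0.358, SD, n = 2). It was the only site in the gene body, whose length was 32.5 kb. Stronger sites flanked the gene inside its neighbours. In an intron of Fads1, which encodes a fatty acid desaturase, a site 52.2 kb downstream had 2.06 in replicate 1 and 2.26 in replicate 2. In introns of Dagla, which encodes a diacylglycerol lipase, sites 35.9 kb and 17.8 kb upstream had 2.00 and 2.10, and 2.08 and 1.95. These 3 sites were stronger than the Myrf promoter peak in both replicates, and the site nearest to Myrf among them, at 17.8 kb, was also nearer to the Myrf start than to any other protein-coding start site.

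Pdgfra (ENSMUSG00000029231.15, chr5:75152292-75198215) encodes the receptor for PDGF-AA, which drives precursor division. Its highest promoter peak had 1.80 in replicate 1 and 2.58 in replicate 2 (2.19 ± 0.552, SD, n = 2). This peak was centred 4.08 kb downstream of the 5′-most start, near an internal start site that lies 362 bp from it, and its window also holds a start site of Gm42803. The printed part begins right after bases annotated as untranslated. It carries a shared footprint that includes GCCCTCTAGTGG, the CTCF core motif read on the minus strand. At the 5′-most start, a weaker shared site centred 0.881 kb upstream had 1.09 in replicate 1 and 1.28 in replicate 2. Between 3.52 kb upstream and 3.62 kb downstream of that start, 8 further sites were in replicate 2 alone, with values up to 0.775. Outside promoters the strongest site lay 9.01 kb upstream, in an intron of Gm19583, with 1.31 in replicate 1 and 1.05 in replicate 2.

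Cspg4 (ENSMUSG00000032911.6, chr9:56865033-56899870) encodes the NG2 proteoglycan of precursors and also of pericytes. Its promoter had no peak in either replicate, and the list of stretches under 0.05 held 0 bp there in both. Inside the gene, 5 sites were shared. The strongest, 3.43 kb from the start in an intron, had 2.04 in replicate 1 and 1.89 in replicate 2, with 8 footprints in replicate 1 and 5 in replicate 2. Its sequence above has 5 runs of capitals, the most of any printed sequence. A site 26.7 kb into the gene had 1.69 and 1.43. Between genes, 17.3 kb upstream, a site had 1.83 and 1.95. Cspg4 thus had strong sites within it without a peak at its annotated start.

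**Figure D2:**
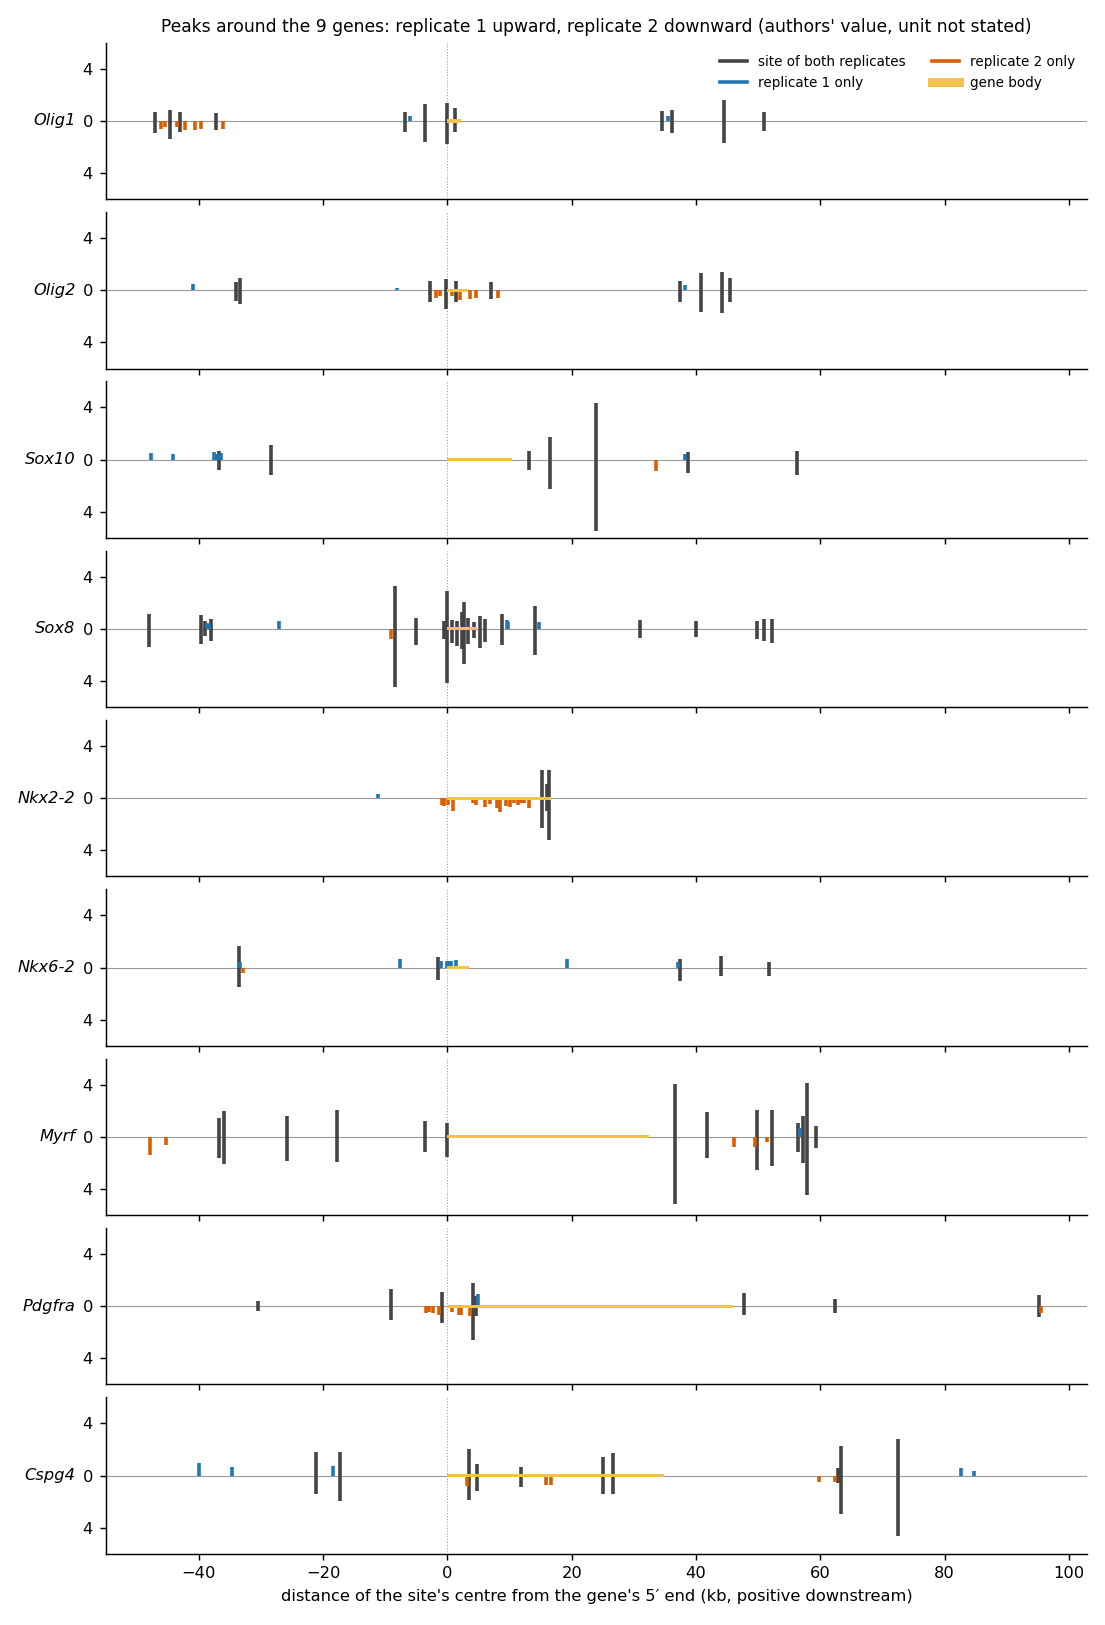
Every site in the window of each gene, by distance of its centre from the gene's 5′ end (kb), with the authors' value of replicate 1 drawn upward and of replicate 2 downward. Dark lines are shared sites, blue and orange lines are sites of replicate 1 and of replicate 2 alone, and the yellow bar is the gene body. Nkx2-2 has a run of orange lines over its body that ends at 3 shared sites, and Sox10 has no line over its body.

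An absent peak in the list was rarely joined by listed cuts. Among all genes without a promoter peak in either replicate, 1.68% had any promoter stretch under a false discovery rate of 0.05 in replicate 1 and 1.47% in replicate 2. Over the union of the 9 windows, 4 of the 34 sites of replicate 1 alone and 5 of the 46 sites of replicate 2 alone overlapped a listed stretch of the other replicate. The rest were under no listed stretch there, which does not show that they were closed.

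The promoters of Sox10 and Cspg4 are poor in CpG. The ratio of observed to expected CpG was 0.305 at Sox10 and 0.272 at Cspg4, and 40.9% of the 4288 genes with a ratio of 0.2 to 0.4 had one open in both replicates. The ratio was taken over 1 kb either side of the 5′ end of the annotated body. At Nkx6-2 it was 0.851, in a range where 97.2% of genes had a promoter open in both replicates, and Nkx6-2 did not. At the 5′ end of Nkx2-2 it was 0.672, in a range where 95% of genes had one. The basic start sites of Nkx2-2 lie 7.84 and 8.14 kb inside that end, so this ratio does not describe its promoter as scored here.

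Outside promoters, the windows were denser in shared sites than most. All 9 members had at least 1 shared site outside promoters, against 81.3% of all protein-coding genes, and the lowest count was 3. Per 100 kb of window the members had a median of 4.84, against 1.96 over all protein-coding genes. Sox8 had 14 such sites, or 13.4 per 100 kb, at percentile 99.8 of all genes. Olig1 followed with 6.85 per 100 kb and Myrf with 6.04, at percentiles 95.9 and 93.6. Cspg4 had 5.19, Olig2 4.84, Nkx6-2 4.83 and Sox10 4.53, between percentiles 84.1 and 89.4. Pdgfra had 2.74 and Nkx2-2 2.57, at percentiles 61.4 and 58.3. All 9 were above the median of all genes, and with a single group no test of this order was made. The median density was above 1.96 in every other list described below as well. It was 5.89 for the forebrain and hippocampal genes, 3.79 for other lineage factors and 3.48 for myelin genes. It was 2.96 for patterning and growth signals, 2.86 for genes of other tissues, 2.84 for paralogues and 2.12 for further precursor genes. A density above that of all genes was thus not particular to the members.

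**Figure D3:**
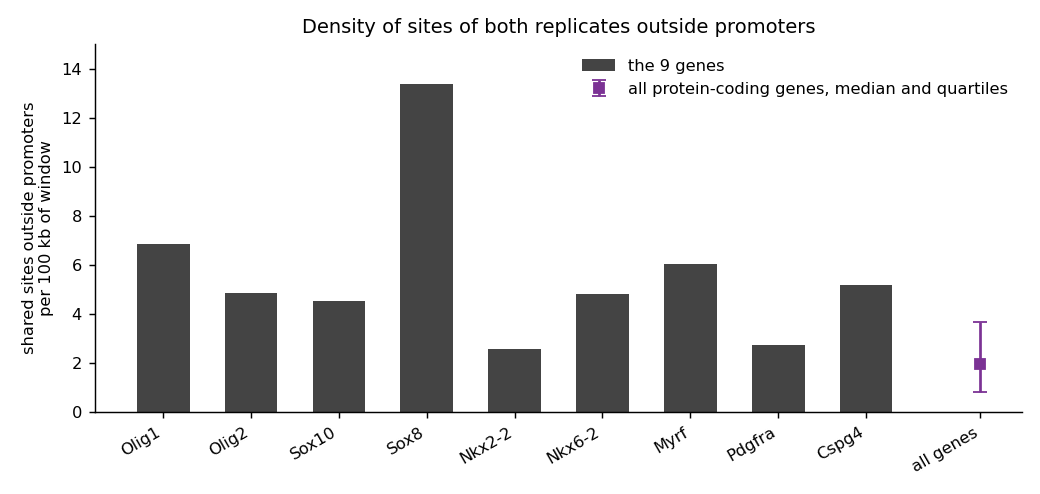
Shared sites outside promoters per 100 kb of window for each of the 9 genes (bars), beside the median and quartiles over all protein-coding genes (square). All 9 bars are above the median of 1.96, and Sox8 is highest at 13.4.

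The union of the windows held 55 shared sites outside promoters, of which 31 lay in introns, 16 between genes and 8 in exons. Of these, 37 had a member's start site as the nearest protein-coding start, so the others lie nearer to another gene. Their values had a median percentile of 71.8 in replicate 1 and 69.2 in replicate 2, against 59.2 and 50.4 over all 47729 shared sites outside promoters. A footprint of each replicate was present in 48 of the 55 (87.3%), against 78.1% of all such sites. The members' sites were also wider, with a median of 328 bp against 260 bp, which gives more room for a footprint. The part of width and strength in this share was not tested.

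Letters that the members' own families bind occurred in these sites in small counts, with shares above those of all sites for some and below for others. The 6-base SOX letters ACAAAG or ACAATG occurred on either strand in 11 of the 55 stretches (20%), against 20.3% of all shared sites outside promoters. The letters CATATG, an E-box that OLIG factors bind, occurred in 1 of 55 (1.82%), against 3.73%. Of the other E-boxes, CAGCTG occurred in 13 (23.6%, against 19.5%) and CAGATG in 10 (18.2%, against 23.6%). The NKX2 letters CACTTNA occurred in 4 (7.27%, against 7.64%) and the homeobox letters TAATTA in 3 (5.45%, against 3.20%). The CTCF core motif occurred in 6 (10.9%, against 12.7%), the SP/KLF letters GGGCGG in 6 (10.9%, against 8.20%) and the AP-1 letters TGANTCA in 1 (1.82%, against 6.25%). In the 10 shared promoter sites of members, GGGCGG occurred in 7, against 50.8% of all shared promoter sites. The CTCF core motif occurred there in 1, that of Pdgfra, against 4.84%. Of the other motifs, 1 of the SOX strings and the E-boxes CAGCTG and CAGATG occurred in 1 promoter site each, and the rest in none. None of these letter strings contains another, and stretches had a median of 197 bp in members and 180 bp over all sites. Over the 28 sites with a footprint shared by both replicates, SOX letters occurred in none of these footprints with 5 bp added to each side, and a match is in any case only a description.

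Sites of 1 replicate alone leaned to opposite sides at different genes. At 5 members, sites of replicate 2 alone outnumbered those of replicate 1 alone, against 20.6% of all protein-coding genes. They were Nkx2-2 (17 against 1), Pdgfra (9 against 1), Olig1 (7 against 2), Olig2 (7 against 3) and Myrf (5 against 1). At 3 members those of replicate 1 alone were more, against 57% of all protein-coding genes. They were Nkx6-2 (9 against 1), Sox10 (7 against 1) and Sox8 (6 against 1). Cspg4 had 5 of each. Genome-wide, replicate 1 had the longer list, with 39325 sites of its own against 20226 of replicate 2, so the lean to replicate 2 at those 5 genes ran against the libraries as a whole. Since Olig1 and Olig2 share most of their sites, these were 4 separate loci. With 2 replicates, a difference between the animals, the dissection and the library cannot be told apart.

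**Figure D4:**
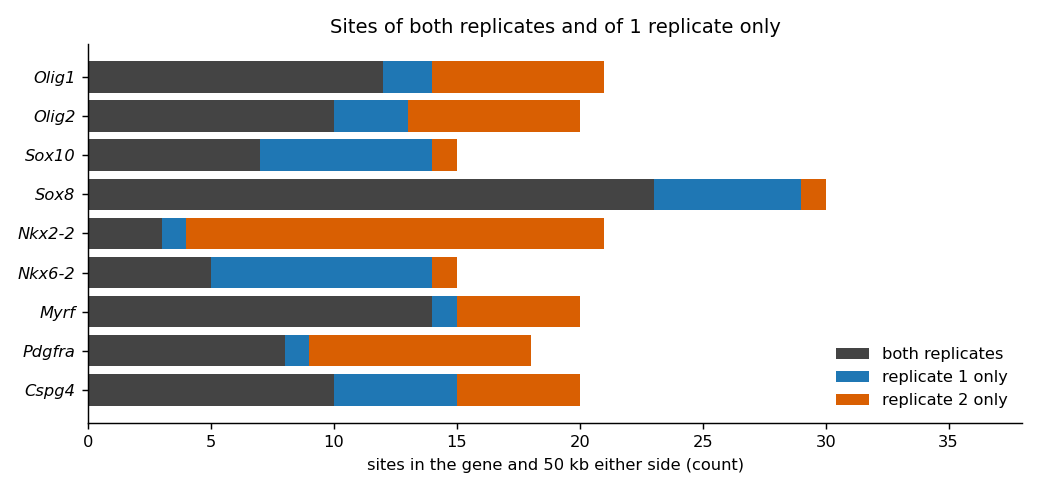
Number of sites in the window of each gene that were in both replicates (dark), in replicate 1 alone (blue) and in replicate 2 alone (orange). Nkx2-2 has 17 of 21 sites in replicate 2 alone, and Nkx6-2 has 9 of 15 in replicate 1 alone.

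Where both replicates had a peak, their values ranked alike. Across the 84 shared sites of the union of windows Spearman's rho was 0.899, against 0.939 across 69706 shared sites of the genome. These sites share their libraries and their scaling. The value of replicate 2 over that of replicate 1 had a median of 1.19 and ranged from 0.693 to 2.01, against a median of 1.14 over all shared sites. Footprints were shared less. Of 337 footprints of replicate 1 in the windows, 107 (31.8%) were covered to at least 50% by a footprint of replicate 2, against 32.7% of that library as a whole. Of 400 footprints of replicate 2, 104 (26%) were so covered, against 38.4% of that library. In these windows 46 of the 164 sites were in replicate 2 alone, against 15.6% of all sites of the genome. The part of such sites in the lower share was not tested.

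Companion genes were taken in lists of 12. Of other transcription factors of the lineage, all 12 had an open promoter in both replicates, against 62.6% of all protein-coding genes. The strongest were Id2 (5.20 in replicate 1 and 5.70 in replicate 2), Id4 (2.31 and 3.46) and Sox9 (2.62 and 2.89). Id2 and Id4 encode inhibitors of bHLH factors, and Sox9 is the third SoxE gene, active in astrocytes and progenitors. Among genes of patterning and growth signals 10 of 12 had one in both, led by Gli2 (2.40 and 3.13), Fgfr1 (2.11 and 2.83) and Ptch1 (1.94 and 2.56). Bmp4 had none, and Fgfr3 had one in replicate 2 alone (0.954). The hedgehog genes Gli2 and Ptch1 encode a transcription factor and a receptor of that pathway.

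Of further genes of precursors and newly formed oligodendrocytes, 10 of 12 had a promoter peak in both replicates, against 62.6% of all protein-coding genes. Cspg5 had 1.77 in replicate 1 and 2.36 in replicate 2, Tnr 1.41 and 1.72, and Bcan 1.31 and 1.70. These encode matrix and surface proteoglycans or glycoproteins that neurons or astrocytes also make. Bcas1 and Enpp6, which mark cells at the start of myelination, had none. Of 12 myelin genes 4 had one in both, against the same 62.6%, and 6 had none in either, against 33.9%. The highest were Cnp (1.27 and 1.47), Trf (0.651 and 0.872) and Ugt8a (0.728 and 0.717). Mbp, the myelin basic protein gene, had one in replicate 2 alone (1.16), as did Cldn11 (0.717). Mog and Mag, which encode myelin membrane proteins, were among those with none in either replicate.

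Paralogues of the members had a promoter open in both replicates at 3 of 9 genes, against 62.6% of all protein-coding genes. They were Sox9, Kit (1.30 in replicate 1 and 1.76 in replicate 2) and Pdgfrb (0.721 and 1.00), a pericyte receptor. Olig3, Nkx2-9 and Nkx6-3 had none. Nkx2-1 (0.571) and Nkx6-1 (0.522), which pattern the ventral neural tube, had one in replicate 2 alone, as Nkx2-2 did. The tissue label was checked with 8 forebrain and hippocampal genes, among them Lhx2, Emx2 and Prox1. All 8 had a promoter peak in both replicates, against the same 62.6%. None of 6 genes of other tissues, among them Alb, Apoa1 and Cd3e, had one in either, where 33.9% of all genes had none. These lists were not matched for promoter CpG ratio, so the shares over all genes are a loose comparison. Of genes with a ratio under 0.2, 10.6% had a promoter open in both replicates, and of those at 0.8 or more, 97.2%.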

How the data were processed

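DNase-seq was measured in 2 replicates of 1 group. Per the deposited file descriptions, all files were made per library from an alignment to mm10, with replicates not pooled. The aligner, the peak caller and the read depths are not named in the sources used here. Each peak carries a signal value that the authors deposited with no normalization stated. The deposited p-value columns are false discovery rates, always under 0.05 for the cut rate and fixed at 0.01 for footprints. Reads of a hybrid with CAST/EiJ were placed on mm10, and the effect on single sites was not tested.

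Replicate 1 had 115072 peaks and 285181 footprints, and replicate 2 had 95711 peaks and 244137 footprints. The longer peak list of each replicate was used, and 65.3% of peaks of replicate 1 and 78.4% of replicate 2 overlapped a peak of the other by at least 1 bp. Genes came from the basic set of GENCODE M21 on chromosomes 1 to 19, X and Y. A footprint was shared if at least 50% of it was covered. No peak lay beyond a chromosome end, and the RefSeq promoter entries of 6 members equalled the genome at their coordinates. The 12 motifs were searched on both strands. The code was tested on simulated data. Python 3.11.15, numpy 2.4.6, pandas 2.3.3, scipy 1.17.1, pysam 0.24.0 and samtools 1.23.1 were used.

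Values are descriptions, with no test, since there was no second group. The members, lists and alternatives were chosen with earlier results of these data known. Named beside the members were, per list, the 3 genes with the highest promoter values where both replicates had a peak, up to 3 with none in list order, and those open in 1 replicate, and, per member, the 3 strongest shared sites outside promoters. A gene and a sequence that these rules would name are not reported here.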

Additional observations from a re-analysis of the deposited data

How the results depend on the processing

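The count of members with promoters open in both replicates was 5, and 5 or 6 under every alternative run. Nkx6-2 joined with promoters of 2500 bp, and it had no promoter peak in either replicate in the shorter peak list or among peaks at or above the median value of each list. Either replicate alone gave 6, with Nkx6-2 in replicate 1 and Nkx2-2 in replicate 2. Shared sites outside promoters numbered 55. They were 30 in the shorter peak list, 13 in the gene bodies alone, 25 with 10 kb either side and 91 with 100 kb. Single replicates had 83 to 88 (without replicate 2 and without replicate 1). Other alternatives gave 37 to 62, the 52 with all transcripts of the annotation being chosen after seeing the data. Footprints of replicate 1 shared by replicate 2 numbered 107. They were 55 with 10 kb either side and 23 in the gene bodies, and single replicates had 337 to 400. With an overlap of 1 bp they were 128. Spearman's rho of 0.899 was 0.938 with reciprocal overlap of 50%. SOX letters, in 11 sites, were in 7 within 150 bp of width around the centre and in 0 footprints shared by both replicates. The OLIG E-box, in 1 site, was in 0 under both, and the NKX2 letters, in 4, were in 1 of those footprints. The highest promoter peak of the 5 members was the same under the alternatives that kept both replicates. Keeping peaks at or above the median, or cutting the longer list to the length of the shorter, drops only weaker peaks. A highest peak that stays cannot change under these settings, so they are no check of it. No paired analysis was possible because there is only 1 group. The read depth is not given, so a missing peak does not show a closed site.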
